A study of Canis lupus familiaris with 5 samples.

Results

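CLGL-90 and CLL-1390 are established canine leukaemia cell lines that both carry a T-cell label, the first described as a large granular lymphocyte (LGL) leukaemia and the second as a primitive T-cell leukaemia. The comparison takes the deposited log2 value of CLGL-90 minus that of CLL-1390 for each probe set of an Affymetrix canine array, and uses 2 of the 5 samples of the series. The other 3 lines, 17-71 and GL-1 (labelled B-cell) and CL-1 (labelled primitive alpha/beta T-cell), are given beside them for scale and enter no difference. All 5 lines were grown without treatment in RPMI medium with 10% FBS, and total RNA with an integrity number above 9 was hybridised to 1 array per line. No line has a second culture or array, so a difference between these lines has no replicate check and no SD or p-value can be given. In a bulk sample a smaller share of expressing cells and less transcript per cell cannot be told apart.

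T cells arise from CD34-bearing progenitors that enter the thymus, where factors such as LEF1, TOX and SATB1 act during their maturation. Mature T cells carry the T-cell receptor with its CD3 chains, which pass the signal to the kinases LCK and FYN and to adaptors such as LAT. Large granular lymphocytes are effector T or natural killer cells that store granzymes and perforin in granules for killing target cells.

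Of 42924 probe sets left after the 111 Affymetrix controls, 29254 carried 1 gene symbol, and these represented 15115 genes. A gene was read from its probe set of highest mean over the 5 arrays. It was compared where its higher value lay above the highest control probe set for a sequence that dogs do not have (6.76 on the CLGL-90 array and 6.70 on the CLL-1390 array), which left 10495 genes. The median difference over these genes was 0.00058 and the middle 50% lay between -0.41 and 0.28, and 83% were apart by less than log2 1. Across these genes the values of both arrays had a Pearson correlation of 0.841, a description over genes that share 2 arrays. The 27 probe sets of the bacterial and phage transcripts that are added to Affymetrix hybridisations read 0.32 higher on the CLGL-90 array on average, with differences from -0.03 to 0.61, a guide to the offset between these arrays.

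A difference of at least log2 2 (4-fold) was called. By this rule 588 genes (5.6% of those compared) were apart, 316 (3.01%) higher in CLGL-90 and 272 (2.59%) higher in CLL-1390. At log2 1 the rule took 17% of genes, 7.76% higher in CLGL-90 and 9.21% higher in CLL-1390. At log2 3 it took 2.8% (1.6% and 1.2%), and at log2 4 it took 1.54%, with 95 genes (0.905%) higher in CLGL-90 and 67 (0.638%) higher in CLL-1390. In 153 of the 316 and 136 of the 272 genes the lower value lay at or under the non-dog control of its array. These genes are called at background in that line, although a value under this highest control can still hold signal. For such genes the fold is given as "at least", taken from the control and not from the dim value, and a difference of another probe set is given as "at least" on the log2 scale in the same way. Counted in that way, 263 genes (2.51%) were at least 4-fold higher in CLGL-90 and 220 (2.1%) in CLL-1390. Genes were compared by their higher value, so the share called in a gene list leaves out members not above the control. The 5.6% leaves them out in the same way.

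**Figure D1:**
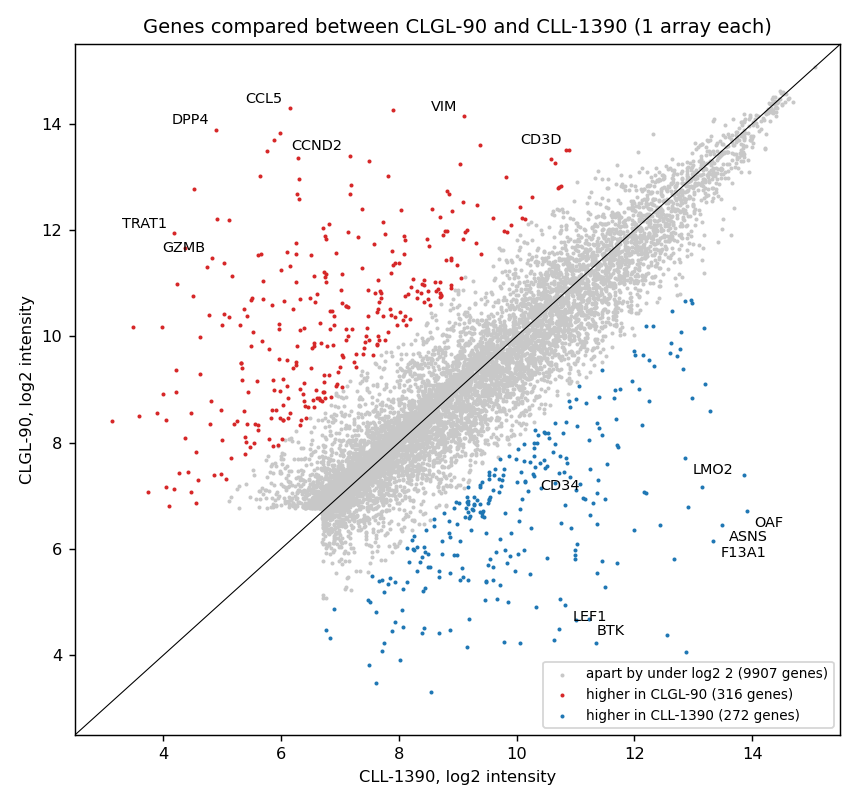
Log2 intensity of each of 10495 genes in CLL-1390 (horizontal axis) and CLGL-90 (vertical axis), 1 array each, with the diagonal marking equal values. The 316 red genes lie at least log2 2 above the diagonal and the 272 blue genes at least log2 2 below it, with CCL5 and DPP4 at the upper left and OAF, ASNS and F13A1 at the lower right.

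CD3D, CD3E and CD3G, chains of the T-cell receptor complex, read above the control in both lines and higher in CLGL-90. CD3D stood at 13.51 in CLGL-90 and 10.89 in CLL-1390, a difference of 2.62 or 6.15-fold. GL-1 stood at 9.78, CL-1 at 5.44 and 17-71 at 5.14. CLGL-90 and CLL-1390 were paired as the T-labelled lines with high CD3D, so standing above CL-1 in this gene was set by that choice. The other CD3D probe set differed by 2.45. CD3G stood at 12.69 and 8.86, 14.2-fold higher in CLGL-90, and CLL-1390 here lay below the B-labelled GL-1 at 10.01. The CD3E probe set of highest mean over the 5 lines differed by 1.77 (10.24 and 8.48). Its other one, brighter in both lines compared, differed by 4.22 (12.80 and 8.58), so only this one passed the 4-fold rule. CD247, the zeta chain, stood at 10.64 in CLGL-90 and at 6.58 in CLL-1390, at or under the non-dog control there (at least 15.4-fold). CL-1 stood above CLGL-90 in CD247, at 11.16, with 17-71 at 5.68 and GL-1 at 5.85.

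The signalling molecules next to the receptor did not all go one way. LCK, the kinase that starts signalling, was close in both lines (11.78 and 11.44), as was the adaptor LCP2 (10.54 and 10.70). TRAT1, a transmembrane adaptor that stabilises the receptor complex, stood at 11.93 in CLGL-90 and 4.19 in CLL-1390 (at least 37.7-fold; its other probe set differed by at least 6.18), and no other line exceeded 4.45. SH2D1A, an adaptor of SLAM-family receptors, stood at 10.98 and 4.24 (at least 19.5-fold), with CL-1 also high at 9.80. SKAP1 (12.23 and 9.59) and SLA2 (10.45 and 7.63), further adaptors, were 6.22-fold and 7.07-fold higher in CLGL-90. Of the other SKAP1 probe sets, those above the control differed by 2.93 and 2.79 as deposited, and 1 at background differed by only 0.39. FYN, the second kinase of the SRC family in T cells, went the other way: it stood at 6.18 in CLGL-90, under the control, and at 9.72 in CLL-1390 (at least 7.8-fold), while 17-71, CL-1 and GL-1 stood at 9.34, 10.31 and 10.48. CLGL-90 was the only line in which the single FYN probe set read at background. UBASH3A, a negative regulator of receptor signalling, was also higher in CLL-1390 (5.66 and 8.53), but by less than 4-fold when counted from the control (at least 3.41-fold). Of the 24 listed genes of the receptor complex 21 were on the array and 18 were compared. Of these, 7 were called higher in CLGL-90 and 2 in CLL-1390 (50%, against 5.6% of all genes compared). The median difference was 1.5 over the 18 and 0.34 over the 21, against 0.020 over all 15115 genes.

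Of the costimulatory and adhesion receptors of T cells, 7 were called higher in CLGL-90, and all of these but CD27 were at background in CLL-1390. CTLA4, an inhibitory receptor of activated T cells, stood at 12.20 in CLGL-90 and 4.91 in CLL-1390 (at least 45.3-fold). Its other probe set differed by less, at least 2.17. CD28, the activating counterpart of CTLA4, stood at 10.69 and 6.32 (at least 15.9-fold). CL-1 was high in CTLA4 (10.40) and CD28 (11.06), so among the T-labelled lines CLL-1390 was the low one. ICOS, the third member of this family, stood at 7.29, little above the control, and at 4.59, under it (at least 1.51-fold). CD2, an adhesion receptor, stood at 12.59 and 6.30 (at least 59.4-fold) and CD48, a ligand of CD2-family receptors, at 12.68 and 6.27 (at least 63.4-fold). The B-labelled 17-71 was also high in CD2 (11.42) and in CD48 (13.17), and GL-1 in CD48 (11.38). CD27 stood at 11.83 and 6.76 (33.6-fold), and its other probe set differed by 2.84. CD70, the ligand of CD27, stood at 11.56 and 5.66 (at least 29-fold). CD27 was high in CLGL-90 alone (5.96 to 6.55 in the other 3 lines), whereas CD70 was low in CLL-1390 alone (7.78 to 12.13). CD7, an early T-cell marker, stood at 10.31 and 9.25, above 17-71 (5.96), CL-1 (5.38) and GL-1 (8.92). CD200, an inhibitory ligand, and SLAMF1 were higher in CLL-1390, CD200 at 7.45 and 10.81 (10.2-fold) with the other 3 lines at 7.13 to 7.32, and SLAMF1 at 7.06 and 9.71 (6.26-fold). CD4 (8.41 and 8.31), CD5 (8.04 and 7.85) and CD8B (7.52 and 7.88) varied by less than log2 1 over all 5 lines, so no line shows whether these probe sets respond. CD8A stood at 7.89 in CLGL-90 and at 6.33 in CLL-1390, and at 6.29 to 6.49 in the other 3. All 27 genes of this list were on the array and 23 were compared. Of these, 7 were called higher in CLGL-90 and 2 in CLL-1390 (39.1%, against 5.6% of all genes compared). The medians were 1.06 over the 23 and 0.45 over the 27.

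**Figure D2:**
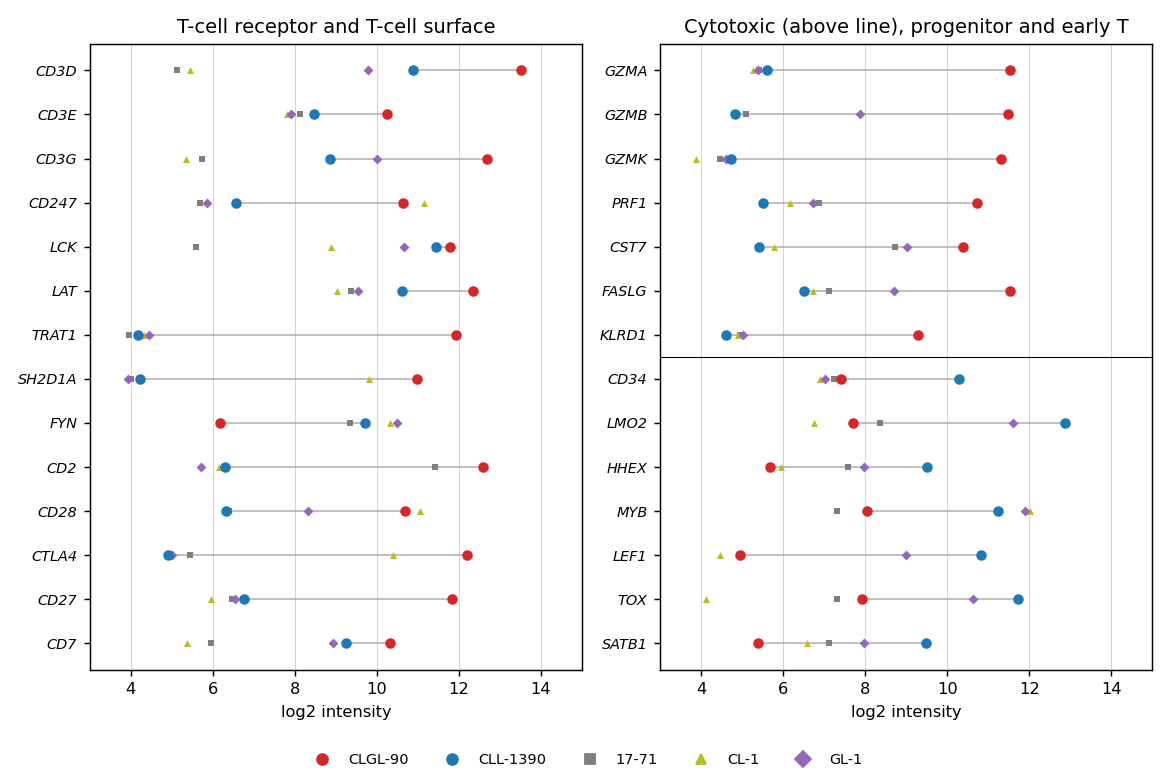
Log2 intensity (horizontal axis) of 28 genes in the 5 lines, 1 array each: CLGL-90 red circles, CLL-1390 blue circles, 17-71 grey squares, CL-1 olive triangles, GL-1 purple diamonds; the grey bar joins the 2 lines compared. CLGL-90 lies to the right for the CD3 chains, adhesion receptors and granule genes, and CLL-1390 for FYN and for the progenitor and early T-cell genes below the line on the right panel.

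Of the granule and killing genes, 7 were called higher in CLGL-90, and all of these but SRGN were at background in CLL-1390. GZMB, a granzyme that triggers apoptosis of target cells, stood at 11.48 in CLGL-90 and 4.83 in CLL-1390 (at least 27.5-fold), and its other probe set differed by at least 3.92. GL-1 held an intermediate 7.88, above its own non-dog control of 6.66. GZMA stood at 11.54 and 5.60 (at least 28.6-fold) and GZMK at 11.30 and 4.73 (at least 24.4-fold), and neither exceeded 5.41 in the other 3 lines. The second probe set of GZMK was at background in both lines (4.86 and 4.59). PRF1, the pore-forming perforin, stood at 10.72 and 5.51 (at least 16.3-fold). FASLG, the ligand of the death receptor FAS, stood at 11.52 and 6.50 (at least 28.3-fold), while its other probe set was at background in both lines (6.14 and 4.59). SRGN, the proteoglycan that packs granzymes, stood at 12.39 and 7.38 (32.1-fold) and CST7, an inhibitor of granule proteases, at 10.37 and 5.42 (at least 12.8-fold). SRGN was high in all lines except CLL-1390 (9.96 to 11.24 in the other 3).

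Not every granule gene followed. CTSW, a cathepsin of cytotoxic cells, was 2.63-fold higher in CLL-1390 (9.49 and 10.88) and lay at 6.57 to 7.29 in the other 3 lines, so both lines compared stood above the rest. CTSC, which activates granzymes, stood at 11.87 and 12.79. NKG7, a granule membrane protein, differed by 1.85 in its representative probe set and by at least 1.55 and 1.82 in the others. TNFSF10, the death ligand TRAIL, was level (10.60 and 10.53). Of 22 listed genes 19 were on the array and 18 were compared. Of these, 7 were called higher in CLGL-90 and 0 in CLL-1390 (38.9%, against 5.6% of all genes compared). The medians were 1.46 over the 18 and 1.44 over the 19.

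Of 14 natural killer receptors on the array 7 were compared, and 4 of these were called, 3 higher in CLGL-90 and 1 in CLL-1390 (57.1%, against 5.6% of all genes compared). This share leaves out the receptors not above the control. KLRD1 and TYROBP entered it only by their values in CLGL-90. KLRD1 (CD94), a lectin-like receptor chain, stood at 9.28 in CLGL-90 and 4.61 in CLL-1390 (at least 6-fold), with 4.91 to 5.03 in the other lines. TYROBP, a signalling partner of activating receptors, stood at 9.78 and 6.53 (at least 8.47-fold) but was higher still in 17-71 (12.29) and GL-1 (11.25). KLRG1, a receptor of late effector cells, was high in both lines (12.97 and 11.55), as in CL-1 (11.85) and GL-1 (12.02). CD244 (2B4) was higher in CLL-1390 (6.84 and 9.38, 5.8-fold), near its value in GL-1 (9.29). NCR1 (5.81 and 5.79), KLRF1 (5.88 and 5.68) and FCER1G (5.36 and 5.41) were at background in both. SLAMF7, an adhesion receptor of killer cells, stood at 9.67 and 7.28, and its other probe sets differed by only 0.26 and by 3.88 as deposited. The median difference over the 14 was 0.14.

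Of 10 transcription factors of effector cells 3 were called (30%, against 5.6% of all genes compared). TBX21 (T-bet) stood at 8.46 and 6.42, where CL-1 reached 8.59, and counted from the control the difference was at least 3.4-fold. EOMES stood at 7.88 and 6.49, PRDM1 (Blimp-1) at 8.88 and 6.97, and RUNX3 at 7.06 and 7.11. BHLHE40, an activation-induced repressor, was 5.41-fold higher in CLGL-90 (10.82 and 8.38), and its other probe sets differed by 1.31 and at least 0.17, under the 4-fold rule. ZEB2, a repressor found in terminal effector cells, was higher in CLL-1390 (5.37 and 8.13; at least 2.58-fold from the control). All 10 factors on the array were compared, 2 called higher in CLGL-90 and 1 in CLL-1390, and the median difference was 0.60.

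Chemokines gave the largest single difference of the comparison when counted from the control. CCL5 (RANTES), which attracts T cells and monocytes, stood at 14.29 in CLGL-90 and 6.15 in CLL-1390 (at least 193-fold), and at 8.53, 6.19 and 5.84 in 17-71, CL-1 and GL-1. CCL3 stood at 13.29 and 7.49 (56-fold), with 7.09 to 7.27 in the other 3 lines, and its other probe set differed by 5.36. CCL4 stood at 8.61 and 4.97, at least 3.76-fold from the control. Of 27 cytokines and chemokines on the array 16 were at background in both lines, among them IL2 (3.78 and 3.85), IL4 (5.34 and 5.39) and IL13 (5.57 and 5.63). IFNG stood at 7.70 and 6.22. Of the 11 compared, 3 were called higher in CLGL-90 and 0 in CLL-1390 (27.3%, against 5.6% of all genes compared).

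Chemokine receptors and integrins divided between the lines. CXCR6, a receptor of tissue-resident effector cells, stood at 10.36 and 5.12 (at least 12.7-fold) and CXCR3, a receptor of type 1 effector T cells, at 11.07 and 8.25 (7.09-fold), both highest in CLGL-90 of the 5 lines. CCR9, the gut and thymus homing receptor, stood at 6.93 and 11.16 (18.7-fold higher in CLL-1390), close to GL-1 at 11.50. ITGA4, the alpha-4 integrin, stood at 5.97 and 10.13 (at least 10.3-fold), while ITGB7, its partner in gut homing, was 5.18-fold higher in CLGL-90 (12.63 and 10.25). ITGB1 stood at 7.67 and 10.47 and CD44 at 6.59 and 9.19, both lower in CLGL-90. Their further probe sets carried less: that of ITGB1 was at background in both lines (5.97 and 5.99), and of those of CD44 1 was at background in both lines and the other lower in CLGL-90 by at least 1.67. For CD44, a receptor for hyaluronan, CLGL-90 was the low line, with 9.62 to 11.84 in the other 3. Of 21 genes on the array 16 were compared. Of these, 3 were called higher in CLGL-90 and 4 in CLL-1390 (43.8%, against 5.6% of all genes compared).

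Among cytokine receptors and their signalling genes, IL2RB, IFNGR1, CISH and SOCS2 were called higher in CLGL-90 and STAT5A in CLL-1390. IL2RB, the beta chain shared by the interleukin 2 and 15 receptors, stood at 10.86 and 7.02 (14.4-fold) in its representative probe set. Of its other 3 probe sets 1 was at background in both lines (5.94 and 3.96) and the others differed by 0.24 and at least 0.51. The common gamma chain IL2RG was level (8.80 and 8.59). CISH and SOCS2, which STAT5 induces and which damp cytokine signals, stood at 10.25 and 6.66 (at least 11.7-fold) and at 9.40 and 5.33 (at least 6.51-fold). STAT5A itself was 10.7-fold lower in CLGL-90 (7.23 and 10.65), STAT5B differed by -1.07 (7.96 and 9.03) and STAT3 by -1.80 (9.11 and 10.91). Of the other 3 STAT5A probe sets 1 was at background in both lines and the others were lower in CLGL-90 by at least 1.70 and 1.98. The other 3 STAT3 probe sets were lower in CLGL-90 by 1.93 and by at least 0.70 and 2.36. IFNGR1, a chain of the interferon gamma receptor, stood at 11.81 and 8.11 (13-fold). Of 30 genes on the array 21 were compared. Of these, 4 were called higher in CLGL-90 and 1 in CLL-1390 (23.8%, against 5.6% of all genes compared).

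Of 13 progenitor genes compared, 10 were lower in CLGL-90, and 5 of these were called. CD34, the progenitor surface marker, stood at 7.41 in CLGL-90 and 10.27 in CLL-1390 (7.27-fold), with the other 3 lines at 6.89 to 7.23, and its other probe set differed by -4.30 (6.98 and 11.28). CLL-1390 alone was high. LMO2, a bridging factor of blood stem cells, stood at 7.71 and 12.87 (35.7-fold), with GL-1 second at 11.60. HHEX, a homeobox factor of early progenitors, stood at 5.69 and 9.51 (at least 6.74-fold), and MYB at 8.05 and 11.23 (9.08-fold), where CL-1 (12.01) and GL-1 (11.89) were higher. MEF2C, a factor of early lymphoid and B cells, stood at 6.68 and 8.77 (at least 4.02-fold) and at 8.71 to 10.31 in the other 3 lines, so CLGL-90 alone was low; its other probe sets were at background in both lines or lower in CLGL-90 by at least 0.66. SPINK2, a protease inhibitor found in progenitors, went the other way, at 10.21 in CLGL-90 and 5.29 in CLL-1390 (at least 11.4-fold). The recombination genes RAG1 (5.32 and 5.64) and RAG2 (6.14 and 5.87) and DNTT (5.73 and 6.04) were at background in both lines, while GL-1 read 8.31 for RAG2 and 8.59 for DNTT. KIT (8.51 and 7.99) and FLT3 (7.49 and 7.98) were level. Of 20 progenitor genes on the array 13 were compared. Of these, 5 were called higher in CLL-1390 and 1 in CLGL-90 (46.2%, against 5.6% of all genes compared). The medians were -1.21 over the 13 and -0.73 over the 20.

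Of the early T-cell transcription factors 3 were called, each higher in CLL-1390. LEF1, a partner of Wnt signalling in thymocytes, stood at 4.95 in CLGL-90 and 10.83 in CLL-1390 (at least 16.8-fold), and its other probe set was lower in CLGL-90 by at least 2.63. GL-1, at 9.00, was the only other line with LEF1 above background. TOX stood at 7.92 and 11.72 (13.9-fold) and SATB1, a chromatin organiser of thymocytes, at 5.38 and 9.48 (at least 6.61-fold). In each of these 3 genes GL-1 was second and CLL-1390 highest of the 5 lines. GATA3 (8.13 and 8.64) and IKZF1 (8.36 and 8.75) were close, and the probe sets of TCF7 (5.98 and 6.07) and NOTCH1 (6.38 and 6.57) were at background in both lines. TCF7 varied by less than log2 1 over all 5 lines, so no line shows whether its representative probe set responds. FOXO1 pointed to CLGL-90 (9.64 and 7.69, with its other probe sets apart by at least 1.34 and 1.65). Of 20 genes on the array 14 were compared, and the 3 calls made 21.4% of these, against 5.6% of all genes compared. The median was -0.37 over the 14 and -0.14 over the 20.

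Kinases of the B-cell and myeloid receptor pathways separated the lines. BTK stood at 4.68 in CLGL-90 and 11.23 in CLL-1390 (at least 22.2-fold; other probe set by at least 3.63), SYK at 6.30 and 9.91 (at least 8.89-fold; other probe set by at least 2.13) and LYN at 7.97 and 10.66 (6.43-fold; other probe set -2.85). For each of these kinases CLL-1390, 17-71 and GL-1 stood above CLGL-90 and CL-1. BLNK, the adaptor that SYK and BTK act on, was higher in CLGL-90 by 1 probe set (9.90 and 5.68, at least 9.23-fold), and its other probe set differed by at least 0.13. The B-cell markers CD79A (5.80 and 5.59) and CD79B (4.74 and 4.76) were at background in both lines, and PAX5 (7.15 and 7.03) and MS4A1 (6.79 and 5.86) lay near it. CD79B and PAX5 varied by less than log2 1 over all 5 lines, so no line shows whether these probe sets respond. In the B-labelled 17-71 and GL-1, MS4A1 read only 5.72 and 5.83, and CD79A 5.50 and 7.83. Of 18 B-lineage genes on the array 10 were compared. Of these, 3 were called higher in CLL-1390 and 1 in CLGL-90 (40%, against 5.6% of all genes compared).

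Among the genes furthest apart were several high in CLL-1390 that are known from platelets, mast cells or vessels; they were brought together after their values were seen. F13A1, the A subunit of clotting factor XIII, stood at 6.15 in CLGL-90 and 13.34 in CLL-1390 (at least 95.8-fold), and at 5.70 to 5.90 in the other 3 lines. The other F13A1 probe set was higher in CLL-1390 by at least 4.04. GFI1B, a repressor needed for red cells and megakaryocytes, stood at 6.94 and 11.49 (23.5-fold), with GL-1 at 9.42. ESAM, a junction molecule of endothelium and platelets, stood at 5.89 and 10.99 (at least 18.8-fold). MS4A2, the beta chain of the IgE receptor of mast cells and basophils, stood at 5.81 and 12.68 (at least 60.6-fold), with GL-1 at 11.31. Its other probe set differed by -3.93 as deposited. GUCY1B1, a subunit of the nitric oxide receptor guanylate cyclase, stood at 7.40 and 13.86 (88.2-fold), with CL-1 at 11.92, and its partner GUCY1A1 at 5.42 and 9.04 (at least 4.84-fold). The other GUCY1B1 probe set was higher in CLL-1390 by at least 4.27. Singled out after their values were seen were MMRN1, a platelet and endothelial protein (4.24 and 11.35), CD36, a scavenger receptor of platelets and macrophages (4.28 and 10.64), and TFPI, an inhibitor of clotting (6.09 and 11.03). The defining platelet genes ITGA2B (8.12 and 8.13) and GP9 (7.71 and 7.89) and the endothelial genes CDH5 (7.55 and 7.28), KDR (7.01 and 6.64) and PECAM1 (5.85 and 5.47, at background) differed by less than log2 1. ITGA2B, CDH5, KDR and PECAM1 varied by less than log2 1 over all 5 lines, so no line shows whether these probe sets respond. Of 11 erythroid and platelet genes compared 0 were called higher in CLGL-90 and 1 in CLL-1390 (GFI1B), 9.09% against 5.6% of all genes. GATA1, a marker of this list, was not called by its representative probe set (7.57 and 8.36). Its other probe sets stood at 7.05 and 8.83 (-1.78) and at 6.54 and 8.98 (at least 2.22 higher in CLL-1390). CLL-1390 was the highest line in both. Of 8 endothelial genes 0 were called higher in CLGL-90 and 2 in CLL-1390 (25%). These were ESAM and ENG, the latter at 5.24 and 8.07, at least 2.48-fold from the control.

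Myeloid markers were at or near background in both lines, and matrix genes were mixed. Of 5 myeloid markers (LYZ, S100A8, S100A9, CSF1R and SPI1) none lay above the non-dog control in CLGL-90 and 1, CSF1R at 6.72, barely did in CLL-1390. Their mean was 5.04 in CLGL-90 and 5.00 in CLL-1390, whereas LYZ alone read 12.39 in 17-71 and 12.01 in GL-1. COL1A1, COL1A2 and COL3A1 varied by less than log2 1 over all 5 lines, so no line shows whether these probe sets respond. The mean of these 3 collagen genes was 6.47 and 6.58, close to the control. Other members of the matrix list were far above it in both lines: SPARC, a matrix glycoprotein, stood at 11.02 and 10.24 (5.88 to 6.86 in the other 3 lines), and THY1, a surface protein of fibroblasts and thymocytes, at 11.19 and 9.98 (5.61 to 9.28). Both lines compared thus read above the other 3 in SPARC and THY1, which were singled out after their values were seen. FN1, fibronectin, stood at 4.66 and 11.00 by its representative probe set (at least 18.9-fold), and its other 3 probe sets, 1 of them above the control, differed by -0.29 to 0.14. CL-1 stood at 14.01.

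The genes furthest apart once dim values are raised to the control, among those whose other probe sets above the control went the same way by at least log2 1, extend these groups and add others. On the CLGL-90 side DPP4 (CD26), a peptidase of activated T cells, stood at 13.89 and 4.90 (at least 146-fold; other probe set at least 6.86), and CD80, a ligand of CD28 and CTLA4, at 12.76 and 4.52 (at least 67-fold). RGS1, a brake on chemokine receptors, stood at 13.02 and 5.64 (at least 79.8-fold), and was the one gene of the comparison in which CLGL-90 lay log2 2 or more above the other 3 lines and CLL-1390 log2 2 or more below them. HAPLN1, a cartilage link protein (13.70 and 5.87), SLC24A5, a pigment-cell exchanger (13.49 and 5.76), and LOC475935 (13.83 and 5.99) were high in CLGL-90 and at 7.62 or less in all other lines; each rests on 1 probe set. IGFBP7 (12.84 and 7.19, 50.1-fold) was shared with CL-1 (11.23), and FABP3, a fatty acid carrier, stood at 12.97 and 6.29, low in CLL-1390 alone.

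On the CLL-1390 side OAF stood at 6.72 in CLGL-90 and 13.92 in CLL-1390 (at least 143-fold). Its other probe sets differed by -5.55 and, counted from the control, by at least 4.41 in size (3.54 and 11.17). ASNS, asparagine synthetase, stood at 6.45 in CLGL-90 against 13.48 in CLL-1390 (at least 106-fold), and at 10.39, 12.70 and 13.19 in 17-71, CL-1 and GL-1. CLGL-90 was the only line of the 5 with ASNS at background. Its other probe sets were lower in CLGL-90 by at least 5.56 and 5.78. UBE2E3, a ubiquitin-conjugating enzyme (7.16 and 13.14), and SH3BGRL (5.28 and 11.51) were likewise low in CLGL-90 alone. CA2, carbonic anhydrase 2 (4.06 and 12.87, at least 69.3-fold), ABRACL (6.78 and 12.92), DSTN, an actin-severing protein (7.08 and 12.16), CDCA7L (5.73 and 11.71) and TIMP2, a metalloproteinase inhibitor (6.35 and 11.99), were higher in CLL-1390, with GL-1 second or above it in each. FABP5, the sister of FABP3, was high in CLL-1390 (4.38 and 12.56), so these fatty acid carriers went opposite ways. FABP5 was also high in 17-71 (13.96) and CL-1 (11.20), and low in GL-1 (4.14). Its second probe set was at background in both lines. C14H1orf35 stood at 8.59 and 13.29, high in CLL-1390 alone.

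**Figure D3:**
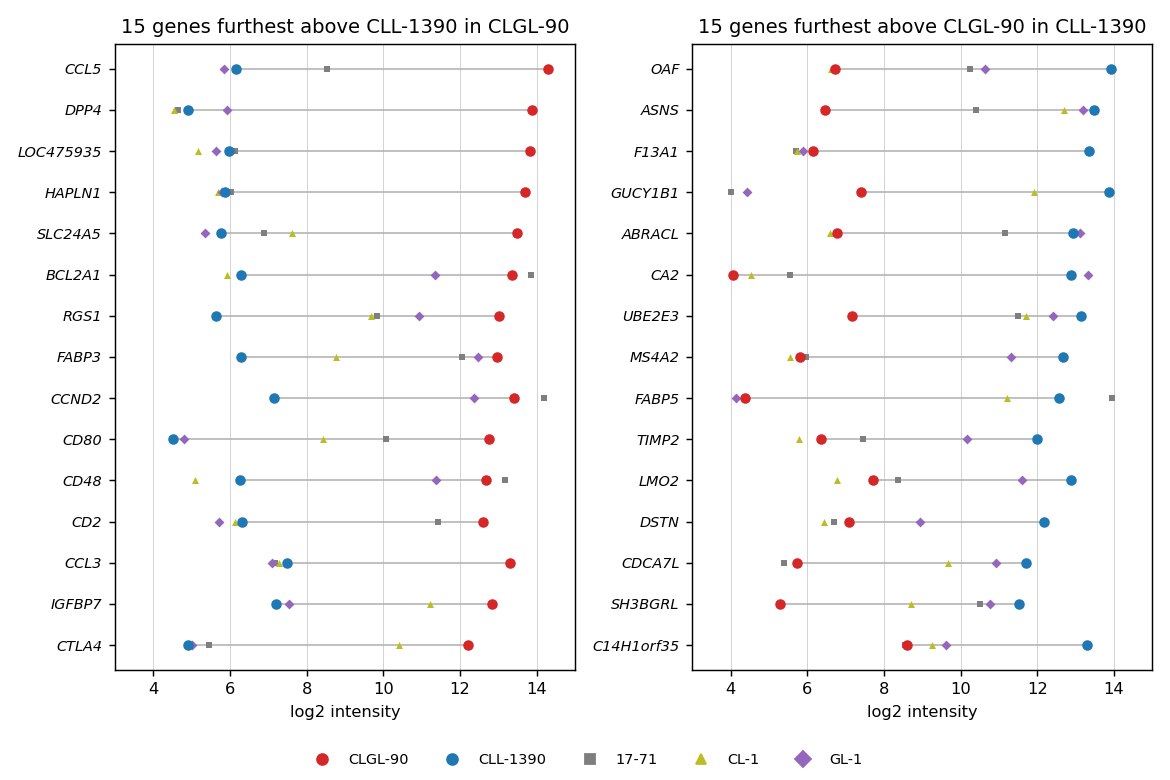
Log2 intensity (horizontal axis) in the 5 lines, 1 array each, of the 15 genes furthest apart in each direction after values at or under the non-dog control were raised to it, in that order; symbols as in the plot of lineage genes. CCL5, DPP4 and HAPLN1 are high in CLGL-90 alone, CCND2 and FABP3 are low in CLL-1390 alone, and ASNS and UBE2E3 are low in CLGL-90 alone.

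Survival and cell cycle genes differed in single members. BCL2A1, an anti-apoptotic BCL2 relative, stood at 13.36 and 6.28 (at least 101-fold; other probe set at least 6.16), while 17-71 (13.85) and GL-1 (11.34) were also high. BCL2 (8.60 and 8.34), BCL2L1 (9.18 and 9.22) and BAX (10.30 and 10.16) were level, and MCL1 stood at 12.21 and 11.21. BIRC3, an inhibitor of apoptosis, was higher in CLL-1390 by 1 probe set (4.42 and 8.68, at least 3.79-fold), with its other 3 probe sets under the control in both lines. Of 22 apoptosis genes compared these 2 were called, 9.09% against 5.6% of all genes. CCND2, cyclin D2, stood at 13.40 in CLGL-90 and 7.16 in CLL-1390 (75.3-fold), and the other lines stood at 12.37 to 14.19, so CLL-1390 alone was low. CDK6, a partner of D cyclins, was high in CLL-1390 alone (8.37 and 11.37, 8.01-fold); its second probe set was at background in both lines. RB1, the retinoblastoma protein that these kinases inactivate, stood at 9.87 and 6.67 (at least 9.03-fold; other probe set at least 3.71), with 5.50 to 7.42 in the other 3 lines. MTAP, which recycles methylthioadenosine, stood at 7.83 and 10.61 (6.91-fold), and its other probe set at 4.26 and 10.91. Of 19 genes of cell cycle entry compared these 4 were called (21.1%, against 5.6% of all genes).

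Genes of mitosis and DNA replication were mostly lower in CLGL-90, each by less than 4-fold. All 25 mitosis and replication genes on the array were compared, and 0 were called in either direction, but 22 of 25 were lower in CLGL-90, with a median of -0.61 against 0.00058 over all genes compared. MCM2 (8.15 and 9.94), MCM3 (9.94 and 11.33), MCM4 (10.66 and 11.81) and MCM7 (10.65 and 11.72), subunits of the replicative helicase, were the widest apart, and TYMS (13.25 and 13.15), GINS2 (10.39 and 9.52) and CENPF (9.09 and 8.09) were not lower. The added hybridisation transcripts differed by a median of 0.40 in the opposite direction; the part of such an offset in this shift was not tested.

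Drug transport and nucleotide genes were split. ABCB1, the P-glycoprotein pump, stood at 8.96 in CLGL-90 and 4.21 in CLL-1390 (at least 4.78-fold), and at 3.96 to 4.54 in the other 3 lines, by 1 probe set. ABCG2, another efflux pump, stood at 5.59 and 9.98 (at least 9.3-fold; other probe set by at least 2.5), with CL-1 (8.67) and GL-1 (9.10) also high. SLC29A1, a nucleoside carrier (8.86 and 11.40, 5.81-fold), and NT5C2, a nucleotidase (8.08 and 10.54, 5.5-fold), were higher in CLL-1390. ADA, adenosine deaminase, was 4.37-fold higher in CLGL-90 (10.32 and 8.19), and the other lines lay at 10.83 to 11.74. Its other probe sets differed by 1.67, 1.54 and at least 0.14, under the 4-fold rule. DCK, which activates nucleoside drugs, was level (8.71 and 8.69), as was NR3C1, the glucocorticoid receptor (8.65 and 8.63). Of 23 genes compared 2 were called higher in CLGL-90 and 4, with ASNS, in CLL-1390 (26.1%, against 5.6% of all genes).

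In the remaining lists few genes were called. Myeloid genes (8 compared), MHC class I and peptide loading (16), interferon response (16) and histone and DNA modifying enzymes (21) had 0 calls in either direction, with medians from -0.30 to -0.04. At the share of all genes compared (5.6%), lists of 8 to 21 genes would hold few calls. In MHC class II 1 of 9 genes compared was called (11.1%, against 5.6% of all genes compared). It was CTSS, a protease that trims the class II invariant chain, 7.16-fold higher in CLGL-90 (11.97 and 9.13). DLA-DRA (6.51 and 6.47) was at background in both lines, and stood at 14.05 in 17-71. Of 17 NF-kB genes 3 were called (17.6%, against 5.6% of all genes compared), 2 of them given above (CCL3 and BIRC3). The other, NFKBIA, the inhibitor that NF-kB induces, was 4.57-fold higher in CLGL-90 (11.98 and 9.79). Among 26 glycolysis and hypoxia genes SLC2A3, a glucose carrier (13.34 and 10.59, 6.76-fold), and EGLN3 (10.72 and 8.30, 5.34-fold) were higher in CLGL-90. These calls made 7.69% of the list, near the 5.6% of all genes compared. Among matrix genes VIM, vimentin, stood at 14.15 and 9.11 (32.7-fold), and at 14.02 to 14.48 in the other 3 lines, so that the gap lay in CLL-1390 alone; VIM had 1 probe set.

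**Figure D4:**
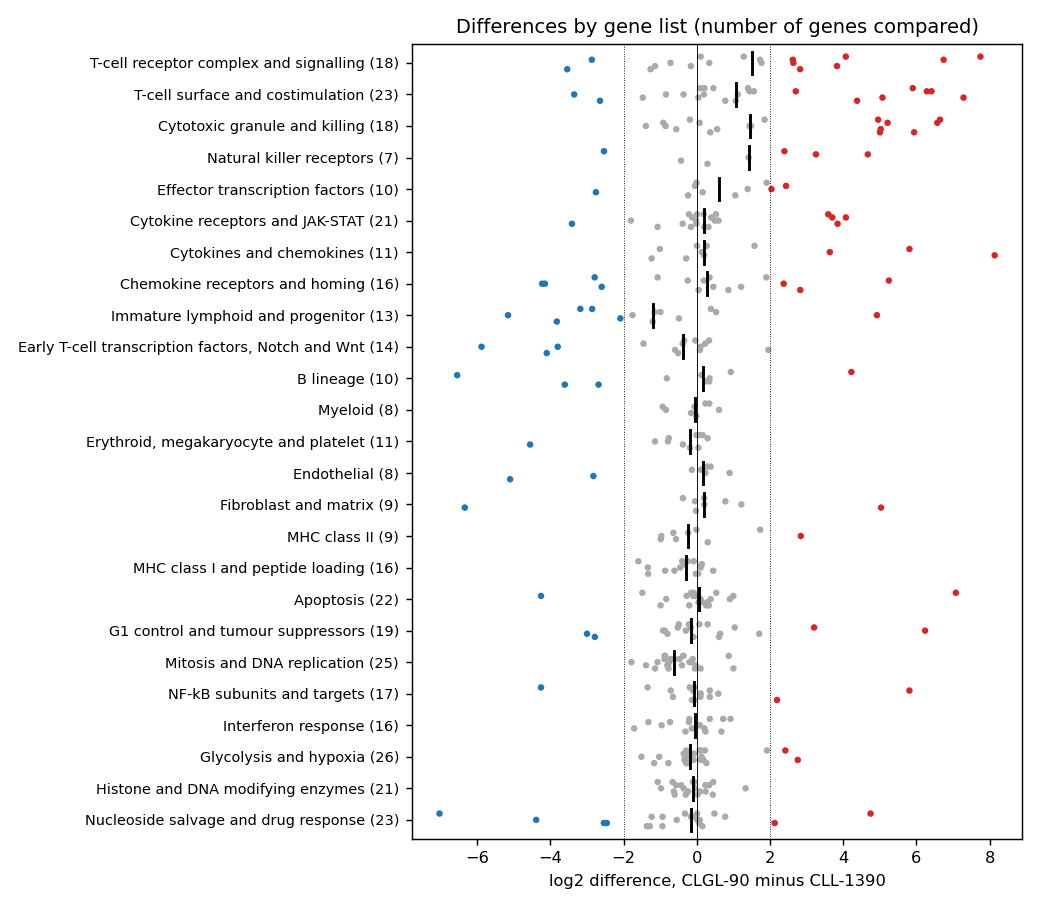
Log2 difference of CLGL-90 minus CLL-1390 (horizontal axis) for each compared gene of 25 lists, with the number compared in brackets; red and blue points are at least log2 2 higher in CLGL-90 and CLL-1390, and black bars are list medians over the compared genes. Genes enter by their higher value, so medians over all members on the array lie nearer 0: 0.34 for the receptor complex, 0.45 for T-cell surface, 0.14 for natural killer receptors and -0.73 for progenitors, against 1.44 for granule genes.

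The other 3 lines show which of the pair stood apart. Of the 316 genes higher in CLGL-90, 98 had CLGL-90 at least log2 2 above 17-71, CL-1 and GL-1, 35 had CLL-1390 at least log2 2 below them, 1 had both and 182 had neither. Of the 272 genes higher in CLL-1390, 61 had CLL-1390 that far above the other 3, 24 had CLGL-90 that far below, 0 had both and 187 had neither. Against all 4 other lines, 99 of 10495 genes (0.943%) were high in CLGL-90 alone and 24 (0.229%) low in CLGL-90 alone, and 61 (0.581%) were high and 36 (0.343%) low in CLL-1390 alone. CCL5, DPP4, CD27 and GZMB were of the first kind, ASNS and FYN of the second, CD34, F13A1 and CD200 of the third, and CCND2, VIM and SRGN of the fourth.

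Where a called gene had further probe sets, these mostly went the same way. Of 412 further probe sets above the non-dog control, in 288 called genes, 402 (97.6%) had the same sign, 342 (83%) were apart by at least log2 1 in the same direction and 271 (65.8%) by at least log2 2, and 0 were apart by log2 1 in the opposite direction, with differences taken as deposited. The same figures over all compared genes were 82%, 19.5% and 5.73% of 7676 probe sets. Of all compared genes 83% were apart by less than log2 1, which leaves little room for the larger sizes, so these shares are no like-for-like baseline. With probe sets at background included, 93.1% of 595 had the same sign and 63.5% were apart by at least log2 1 in the same direction. In that wider set 1 was apart by at least log2 1 in the opposite direction. Probe sets of a gene share the RNA and the array, so they check the reading of a gene and not the difference between lines. The same rule over probe sets rather than genes called 1525 of 24956 (6.11%), 812 higher in CLGL-90 (3.25%) and 713 in CLL-1390 (2.86%). At log2 1 the shares of probe sets were 18.6% in all, 8.28% and 10.3%, at log2 3 they were 2.98%, 1.71% and 1.27%, and at log2 4 they were 1.62%, 0.986% and 0.637%.

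**Figure D5:**
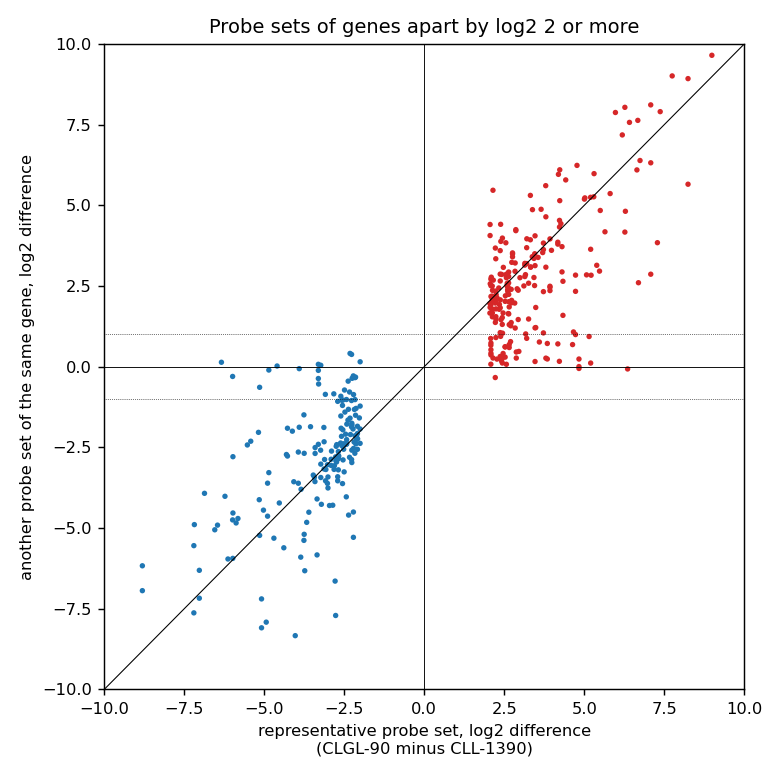
Log2 difference (CLGL-90 minus CLL-1390) of the representative probe set of each called gene (horizontal axis) and of each of its other probe sets above the non-dog control (vertical axis), 412 points, with the diagonal marking equal differences and dotted lines at -1 and 1. No point lies beyond log2 1 on the opposite side, and 342 lie beyond it on the same side.

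Called genes also lay side by side in the genome. In the gene order of the dog assembly UU_Cfam_GSD_1.0, taken over the genes compared, 11 runs of 3 or more neighbours and 41 pairs were called in 1 direction; the runs named here were chosen after their values were seen. CD28, CTLA4 and ICOS form such a run, as do RGS2, RGS13, RGS1 and BRINP3, all 7 higher in CLGL-90, and CCL3 lies beside CCL4 and CCL5 beside CCL16. CD3G with CD3D, SLAMF7 with CD48, and RB1 with ITM2B (13.51 and 10.83) were neighbouring pairs higher in CLGL-90. ARMCX3, GPRASP1, ARMCX5 and GPRASP2, a family cluster, and ITGAV, FAM171B and TFPI were runs higher in CLL-1390. With values raised to the control, runs of 3 or more numbered 3.

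Wider stretches were examined by the median over neighbours. Over windows of 31 neighbouring genes the middle 95% of medians lay between -0.39 and 0.39. The highest medians were 0.89 between B3GALT2 and HSD17B7 (24 of 31 genes above 0), 0.79 between KMT2E and LRRC56 and 0.71 between FHOD3 and MIB1 (28 of 31). The lowest were -1.27 between AVL9 and FAM3C, -1.19 between CCDC28A and AKAP12 (4 of 31 above 0) and -0.79 between BCL10 and WLS. DNA copy number of these lines was not analysed here, so its part in these stretches was not tested.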

How the data were processed

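Total RNA of 5 canine lymphoid lines was measured on 1 Affymetrix array each. The authors deposited log2 intensities per probe set. GCRMA is named in the submitters' processing notes, which give no version; settings were not given in the sources used here. Symbols came from the platform annotation, updated by gene ID through the RefSeq gene table of UU_Cfam_GSD_1.0, which held 94.6% of the annotated probe sets; 439 probe sets with several symbols were not used for genes and 13231 were not listed in the annotation. The table served for names and neighbours only. Background was set by 59 control probe sets for bacterial and tag sequences not added to the hybridisation (medians 4.29 in CLGL-90 and 4.27 in CLL-1390). Differences, 25 gene lists and windows were computed in Python 3.11.15 with pandas 2.3.3. The computation was tested on simulated data. With 1 array a side no test was possible, and the number of arrays limits precision. Named were the 15 genes furthest apart in each direction with agreeing probe sets and up to 6 per list by size. Fixed markers and the 3 extreme windows each way were also named. Of the markers, GZMB, CD3D, CD34 and LEF1 were given with the comparison. Other genes are values beside the named ones, chosen after they were seen. The division by the other 3 lines and the search for differing second probe sets were added after the data were seen. Members and lists were chosen with earlier results of these data known.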

Additional observations from a re-analysis of the deposited data

How the results depend on the processing

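No paired analysis was possible because each line has 1 array. The counts of genes (316 higher in CLGL-90 and 272 in CLL-1390) stayed within 1.5 times under no filter, a minimum of log2 5 or 8, quantile normalization again, centred arrays, dim values raised to the control (263 and 220) and 3 other ways to represent a gene. Called at log2 1 they were 814 and 967 (probe sets 2066 and 2580), and at log2 3 they were 168 and 126 (426 and 317); CLL-1390 had more genes at log2 1 and CLGL-90 more at log2 2 and 3. Of 95 named genes called, 80 kept their call at log2 2 under every alternative of scaling, dim values raised and gene representation, and 15 lost it under 1 or more; higher thresholds and filters were not run on named genes. Raising dim values ended it for BIRC3, CCL4, ENG, TBX21, UBASH3A and ZEB2 (TBX21 also with centred arrays), and the mean or median over probe sets for ADA, BHLHE40, BIRC3, CD44, CDK6, ENG, FN1, IL2RB, ITGB1, MEF2C or SLAMF7. The share of further probe sets apart the same way was 83%, 63.3% with no filter, 92.9% at log2 8 and 77.9% with dim values raised. With no filter, list medians were 0.34 for the receptor complex, 0.45 for T-cell surface, 0.14 for natural killer receptors, 0.048 for homing, -0.73 for progenitors and -0.14 for early T-cell factors. With dim values raised they were 0.56 for T-cell surface and 1.22 for granules. With the mean over probe sets they were 2.05 for granules, 0.048 for homing, -1.44 for progenitors, -0.036 for B lineage, 0.56 for matrix and -0.55 for nucleoside genes. The cause of these moves was not tested. Windows of 61 genes had medians up to 0.59 and down to -0.90, and runs of 3 or more numbered 3 with dim values raised.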

Other observations

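In 153 genes whose representative probe set (the highest in mean over the 5 lines) differed by less than log2 2, another probe set above the control differed by at least that much as deposited, low values included (3.21% of 4770 such genes with a further probe set); the genes named here were chosen after their values were seen. MYCN, a transcription factor of immature and neural cells, stood at 3.83 in CLGL-90 and 10.19 in CLL-1390 by 1 probe set and at 6.57 and 7.73 by its representative one. DLA88, a classical MHC class I gene, stood at 13.78 and 3.94 by 1 probe set and at 13.57 and 14.00 by the representative one. EIF2S3, a translation initiation factor, read 12.27 and 3.92 against 13.09 and 12.42. AXIN2, a target of Wnt signalling, read 3.71 and 7.37 against 8.10 and 8.14. HSPB1, a small heat shock protein, read 5.05 and 11.00 against 7.57 and 8.23. The probe sets set side by side carry the same gene name in the annotation, and which of them reads the transcript was not tested.

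Of 6747 probe sets without a single gene symbol that lay above the control, 244 were called higher in CLGL-90 and 219 higher in CLL-1390 (6.86%, against 6.11% of all 24956 probe sets), the widest by 9.88 and -7.91.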
